A study of Mus musculus and Homo sapiens with 10 samples.

Results

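In K562 cells, 48671 of the 173981 called H3K27ac islands met neither an H3K122ac island nor an H3K4me1 island by as much as 1 bp. That is 28.0% of the list (Wilson 95% interval 27.8 to 28.2%, counting error only). An island is a stretch of neighbouring 200 bp windows in which reads of the immunoprecipitated library exceeded a background library. The islands with neither mark were chosen by where the 3 lists overlap, so all values below describe them and no test was made of how they differ from other islands.

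K562 is a human erythroleukaemia line, here at passage 14, untreated and grown in medium with fetal bovine serum. It is 1 cancer line, and each mark was mapped in 1 library: H3K27ac, H3K122ac and H3K4me1, beside 1 library of input chromatin. All came from chromatin cut with micrococcal nuclease. The study set acetylation in the globular domain of histone H3 against the tail mark H3K27ac, in these cells and in mouse embryonic stem cells, which are not described here. Because there were no replicate libraries, every spread given is a spread between islands, which is not a replicate error. In a population of cells, fewer cells carrying a mark and less of the mark per cell cannot be told apart.

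H3K27ac is acetylation of lysine 27 in the tail of histone H3, written mainly by p300 and CBP, and serves as a standard mark of active promoters and active enhancers. H3K4me1, monomethylation of lysine 4, is typical of enhancers whether active or not, and is usually low right at active gene starts, where trimethylation takes its place. H3K122ac lies on the lateral surface of the histone octamer, where DNA wraps around the nucleosome, and has been linked to transcription. An H3K27ac island that meets no called H3K4me1 island therefore does not show the pair of marks by which active enhancers are usually recognised. Gene starts and gene bodies were not assigned, because no annotation of hg19, the build of the lists, was used here, and the cell line was not checked against marker genes for the same reason.

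The islands with neither mark were weaker and shorter than the other H3K27ac islands, at the same median background. Their median H3K27ac fold over background, as deposited by the authors, was 1.96 (quartiles 1.65 and 2.39), against 2.48 (1.88 and 3.55) in the 125310 islands that met at least one other mark. This was a difference of -0.34 on the log2 scale. Their median length was 1000 bp (quartiles 600 and 1600 bp), against 1400 bp (800 and 2400 bp). An overlap of 1 bp was enough to exclude an island, so the rule itself favoured short ones. How much of the length difference this makes was not tested. Median background was 55 reads per kb in either group, with quartiles of 44.4 and 67.2 against 43.0 and 68.3. In sum they spanned 61.3 of the 314.9 Mb of H3K27ac islands, or 19.5%, and held 13.4% of the reads in them, 4579902 of 34195325.

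The other H3K27ac islands formed 3 classes by the marks they met. The 52446 with H3K4me1 alone were the nearest in strength to those with neither mark, with medians of 2.18 for fold and 1200 bp for length. The 4581 with H3K122ac alone were shorter, at 800 bp, with a median fold of 2.34. In the 68283 with both marks the medians were 2.91 and 1600 bp. Excess read density gives the same order without dividing by background: it scales the H3K27ac count by the authors' library ratio, subtracts the background count and divides by island length. Its median was 52.2 reads per kb in islands with neither mark, 63.5 with H3K4me1 alone, 67.0 with H3K122ac alone and 101.2 with both.

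The upper ends of the classes differed more than the medians. The 95th percentile of fold was 3.39 in islands with neither mark, against 4.12 with H3K4me1 alone, 7.20 with both and 10.1 with H3K122ac alone. Fewer than 10 background reads were found in 0.390% of islands with neither mark, against 6.29% of those with H3K122ac alone, the largest share of the 4 classes. A low background count can give a high fold from few reads. Islands over 4000 bp made up 1.62% of islands with neither mark and 15.0% of those with both.

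**Figure D1:**
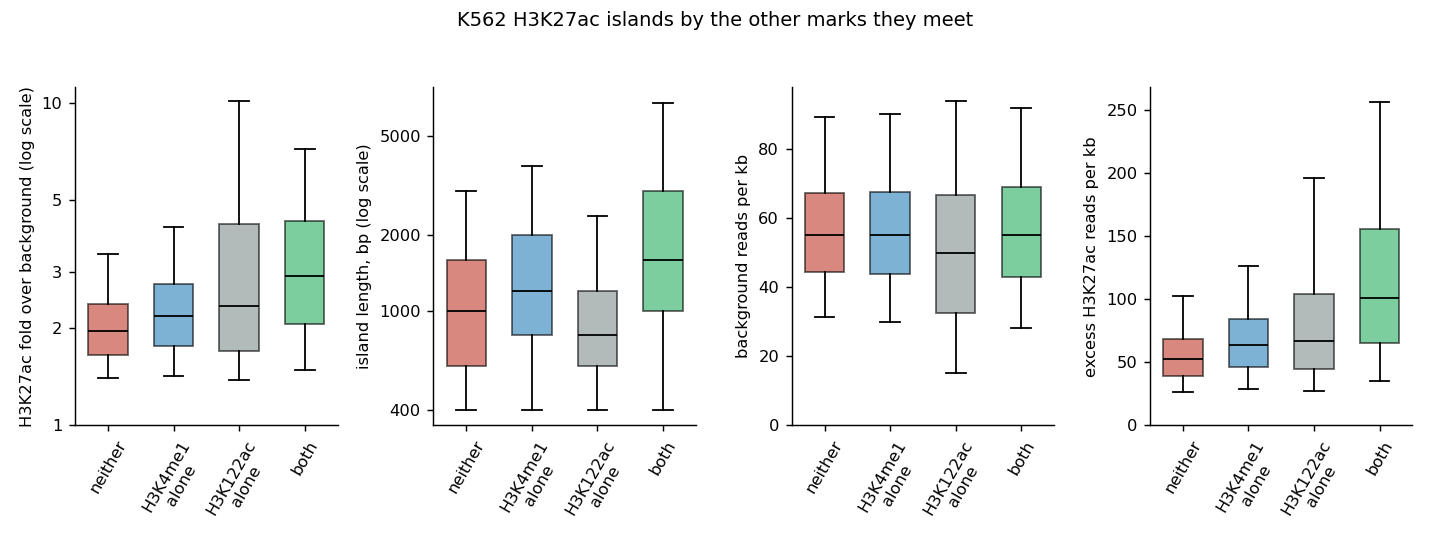
Box plots of H3K27ac fold (log axis), island length (log axis), background reads per kb and excess H3K27ac reads per kb for K562 H3K27ac islands with neither mark, H3K4me1 alone, H3K122ac alone and both. Boxes span the quartiles with the median as a line, and whiskers the 5th to 95th percentile; islands with neither mark have the lowest median fold, 1.96, and the lowest median excess, 52.2, at a median background of 55 reads per kb.

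Few of the islands with neither mark were strongly enriched. A fold of 3 or more was reached by 4467 of them, 9.18% (8.92 to 9.44%), against 35.2% of the islands with another mark and 27.9% of all H3K27ac islands. A q-value of at most 1e-10, from the authors' caller, was reached by 15422, or 31.7%, against 66.2% of the islands with another mark and 56.5% of all. A fold under 1.5 was found in 12.2% of them, against 7.18% of the islands with another mark, but 13.4% of those with H3K122ac alone.

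The share of islands with neither mark was about level over the 3 lowest deciles of H3K27ac fold and smaller in each decile above. It was 40.04% (39.3 to 40.8%) in the lowest decile, 41.6% in decile 2 and 40.9% in decile 3, that is, at folds up to 1.88. It was 30.7% in decile 6, 16.8% in decile 8 and 9.58% in decile 9. In the highest decile, at folds of 4.66 and above, it was 2.70% (2.47 to 2.96%), or 469 of 17344 islands. Islands with both marks made up 24.7% of the lowest decile and 82.8% of the highest. Those with H3K4me1 alone stayed between 31.3% and 36.2% in deciles 1 to 8 and made up 8.62% of decile 10.

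**Figure D2:**
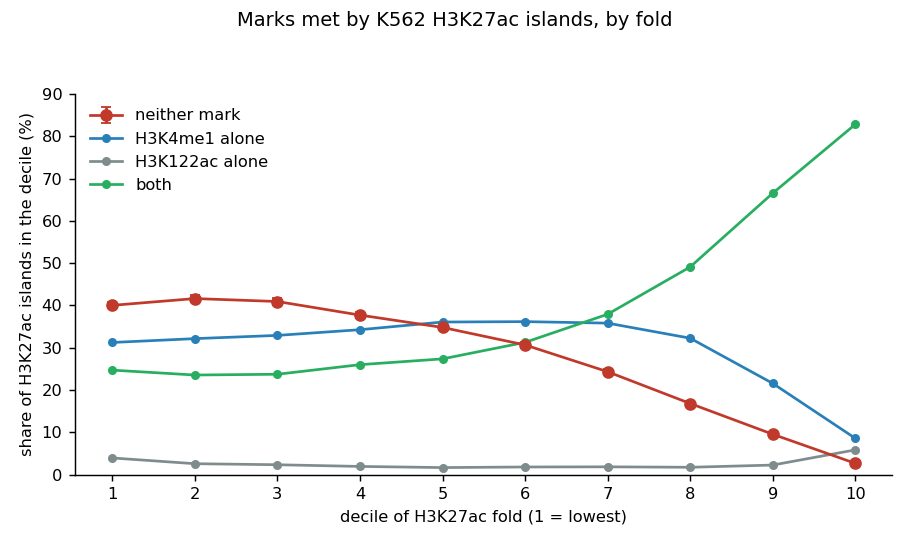
Share of K562 H3K27ac islands (percent of the decile) with neither mark, H3K4me1 alone, H3K122ac alone or both, in each decile of H3K27ac fold; bars on the neither class are Wilson 95% intervals. Islands with neither mark make up 40.04% of the lowest decile and 2.70% of the highest.

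Islands were then compared within ranges of length and of background. Islands with neither mark had a lower median fold than the pooled other islands in each of 4 length ranges. In islands of 200 to 400 bp it was 2.31, against 2.66 in islands with another mark, and in those of 600 to 800 bp 2.06, against 2.37. From 1000 to 1600 bp it was 1.90, against 2.31, and from 1800 bp upward 1.80, against 2.68. In that last range the median was lower still with H3K122ac alone, at 1.71. The gap to the pooled islands was widest among long islands, at -0.57 on the log2 scale, and smallest among the shortest, at -0.20. Islands with neither mark made up 37.7% of islands up to 400 bp and 16.1% of those of 1800 bp or more.

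Split by background reads per kb, the median fold was lower with neither mark than in the pooled other islands in 10 of 10 deciles. In the decile of lowest background, up to 34.1 reads per kb, it was 3.19, against 4.78 in islands with another mark. In the decile of highest background, from 81.5 reads per kb, it was 1.59, against 1.72. With H3K122ac alone it was lower than with neither mark in deciles 7 to 10, at 1.52 in the highest. Excess read density was lower with neither mark than in the pooled islands in all 10 deciles as well, at 62.3 against 100.6 in the lowest and 55.3 against 68.0 in the highest. The share with neither mark was 21.7% in the lowest decile of background, 31.2% in decile 4 and 25.4% in the highest, so it was largest at middling background.

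How much enrichment the other 2 lists could register bears on what "neither mark" means. The ratio of each library to background, which the authors used to scale their folds, was 0.688 for H3K27ac, 0.581 for H3K4me1 and 0.258 for H3K122ac. The H3K122ac library was thus the shallowest relative to its background library. Since the background library is not named, the depths themselves were not compared. The range of 40 to 59 background reads held 12532 of the 48671 islands with neither mark. That was more than in any other range compared, though the ranges were of unequal width. At 40 to 59 background reads, their median H3K27ac fold was 1.93. H3K122ac islands with as many background reads had folds of at least 1.77, a 5th percentile of 2.61 and a median of 4.91. For H3K4me1 islands the lowest fold was 1.42, the 5th percentile 1.65 and the median 2.66. Folds of different lists are not on a common scale, so they mark only how low each list reached.

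Over the background range of 10 to 399 reads, which held 99.1% of the islands with neither mark, 37473 of them (77.7%) had an H3K27ac fold below the 5th percentile of H3K122ac folds at like background. For the 5th percentile of H3K4me1 folds the number was 11651 (24.2%). The same shares among islands with another mark were 43.1% and 11.2%. Among those with H3K122ac alone they were 74.6% and 23.6%, although each of these met a called H3K122ac island. The reach of the lists also depended on the count. At 10 to 19 background reads the lowest called H3K122ac fold was 4.48, while the islands with neither mark had a median H3K27ac fold of 3.39. At 200 to 399 background reads the lowest called H3K122ac fold was 1.25, against a median of 1.62 in the islands with neither mark. H3K122ac enrichment under 4.48-fold was thus called in no island of 10 to 19 background reads, and H3K4me1 enrichment under 2.68-fold in none either. With this reach, the lists do not show that H3K122ac or H3K4me1 was absent from islands with neither mark.

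**Figure D3:**
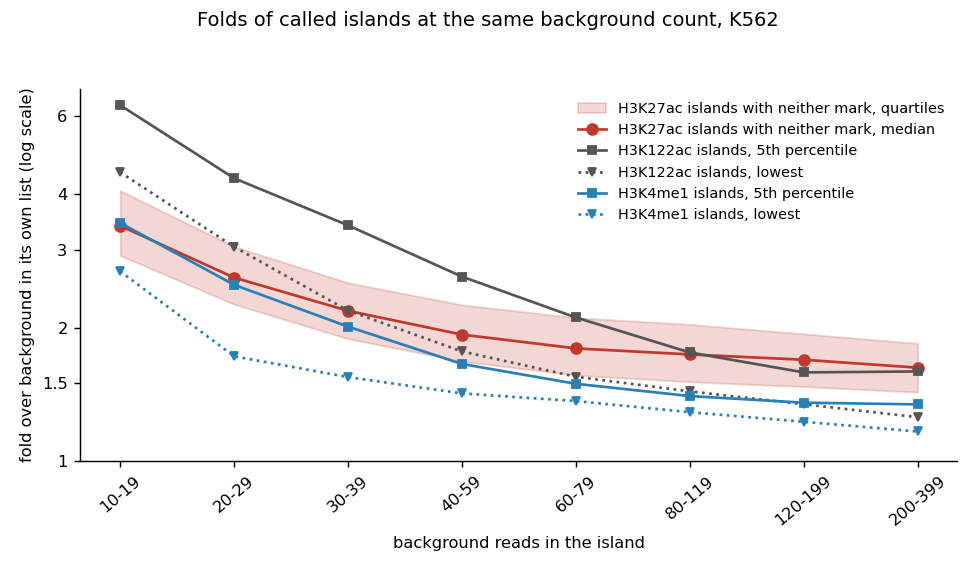
Fold over background in its own list (log axis) by the number of background reads in the island: the median and quartiles of H3K27ac islands with neither mark, and the lowest and 5th percentile fold of all called H3K122ac and H3K4me1 islands. At 40 to 59 background reads the median of 1.93 lies under the H3K122ac 5th percentile of 2.61 and above the H3K4me1 5th percentile of 1.65.

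Most islands with neither mark had an island of H3K4me1 or H3K122ac within 5000 bp. Distances from other positions in the genome were not computed for comparison. The nearest H3K4me1 island was a median of 3600 bp away (quartiles 1400 and 8000 bp), and the nearest H3K122ac island a median of 12200 bp (5200 and 24800 bp). H3K4me1 was the nearer of the marks for 43126 islands, or 88.6%, and H3K122ac for 2349, or 4.83%. The H3K4me1 list is longer than the H3K122ac list, with 113669 islands against 72662. An island of either mark lay within 1000 bp of 9654 islands (19.8%) and within 5000 bp of 30015 (61.7%). Beyond 10000 bp lay 9017 islands (18.5%), and beyond 50000 bp 131.

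Median enrichment varied little along this distance. Median H3K27ac fold was 1.96 in islands within 1000 bp of either mark, 1.95 from 1000 to 2000 bp, and 1.94 from 2000 to 5000 bp. It was 1.95 from 5000 to 10000 bp and 1.98 from 10000 to 50000 bp, and 1.90 in the 131 islands beyond. All of these medians lie within the quartiles of each single distance range. Median length was 1000 bp at every distance up to 50000 bp and 800 bp beyond it. The share with a fold of 3 or more was 10.4% within 1000 bp and 8.40% from 10000 to 50000 bp.

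**Figure D4:**
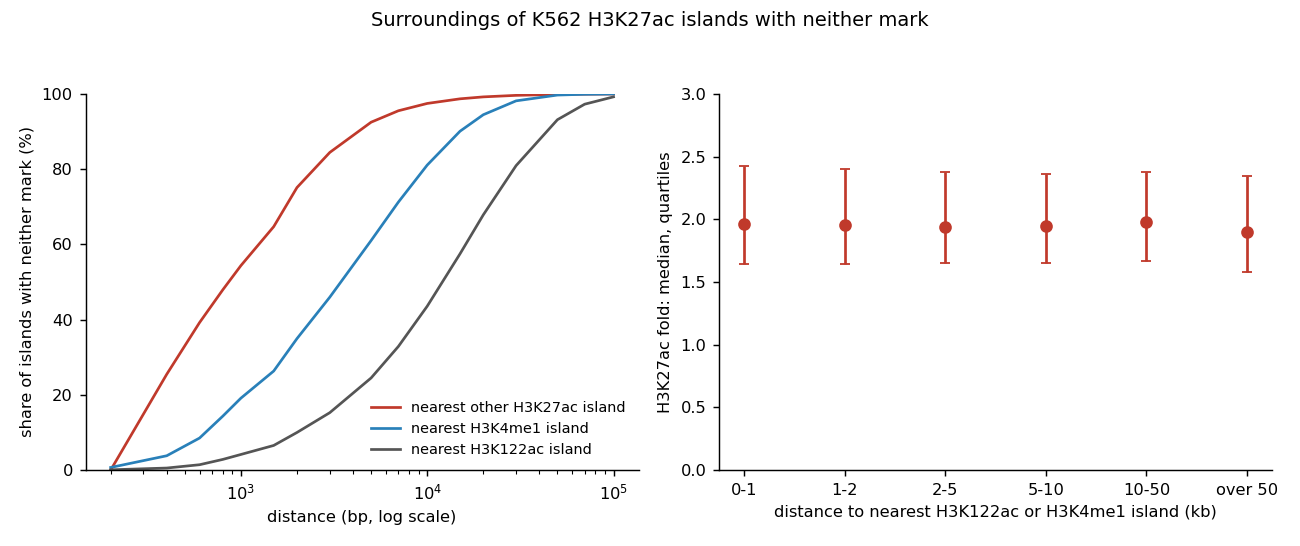
Left, cumulative share (percent) of H3K27ac islands with neither mark that have another H3K27ac island, an H3K4me1 island or an H3K122ac island within a given distance (bp, log axis). Right, their H3K27ac fold (median, with bars for the quartiles) by distance in kb to the nearest H3K122ac or H3K4me1 island; the medians stay between 1.90 and 1.98.

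At the edge of the rule, 124 islands with neither mark directly adjoined an island of H3K122ac or H3K4me1, with 0 bp between them, and their median fold was 1.88. Just outside it, 2364 H3K27ac islands shared a single 200 bp window with the other marks, summed over both lists. Of these, 1399 were longer than that window, and the rest were 1 window long and wholly covered. The median fold of all 2364 was 2.37. Island length was not matched between them and the adjoining islands. Of the adjoining islands with at least 100 reads and 10 background reads, the highest folds were 3.23 at chr2:32416001-32417800 (hg19), from 149 reads over 67 background reads, and 3.23 at chr22:40760201-40762800, from 193 over 87. The next was 2.39 at chr3:168819801-168821800. Of those sharing 1 window, the highest folds were 5.82 at chr3:101389401-101391000, from 112 reads over 28, and 4.63 at chr1:90475601-90477400, from 121 over 38. The next was 4.15 at chr17:65352801-65355400. In all 6, the mark at the border was H3K4me1.

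Islands with neither mark came in groups. Their nearest other H3K27ac island was a median of 1000 bp away, against 600 bp for islands with another mark. That nearest neighbour also lacked both marks for 62.9% of islands with neither mark, against 12.2% for islands with another mark, while 28.0% of all H3K27ac islands lack both. The first of these shares was the higher on each of 23 chromosomes, at 51.4 to 66.2% for islands with neither mark and 8.81 to 14.0% for the others. A single broad H3K4me1 or H3K122ac island can meet several neighbouring H3K27ac islands, so neighbours are not independent in this respect.

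Joined into runs of consecutive islands with no island of any other kind between them, the 48671 islands formed 20306 runs. Single islands made up 10719 runs, or 22.0% of islands. Runs of 5 or more held 19453 islands, or 39.97%, in 2563 runs that spanned a median of 22800 bp, of which a median of 41.1% was covered by islands. Runs of 10 or more numbered 477 and held 6228 islands over a median span of 42400 bp. Median fold was 1.87 in single islands, 1.97 in runs of 3 or 4, 1.99 in runs of 5 to 9 and 2.02 in runs of 10 or more. Median length was 1000 bp in each.

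Nearly all H3K27ac islands with another mark met H3K4me1, and so did those beside the longer runs. What differed beside the runs was a larger share with H3K4me1 alone and a smaller share with both marks. The H3K27ac islands right beside runs of 10 or more met H3K4me1 alone in 71.0% of cases, both marks in 25.9% and H3K122ac alone in 1.15%. Beside all runs these shares were 56.6%, 37.1% and 2.63%. Among all H3K27ac islands with another mark they were 41.9%, 54.5% and 3.66%. Chromosome 1 had 65 of these 477 runs and 10.7% of all islands with neither mark, and chromosome 2 had 45 runs and 8.67%. Chromosome 13 had 3 runs and 1.77% of the islands, and X had 4 runs and 1.54%.

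The run with the most islands was chr6:90352401-90469200, where 34 islands with neither mark followed each other over 116800 bp and covered 53.6% of it. Their folds ran from 1.31 to 3.82 with a median of 2.0, and their lengths from 400 to 5000 bp. In all they held 4454 H3K27ac reads over 3283 background reads. Only 2 of the 34 reached a fold of 3, the higher at chr6:90407601-90408800, from 63 reads over 24. The run was bordered on both sides by H3K27ac islands with H3K4me1 alone.

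The next, chr15:63905001-64013000, held 32 islands over 108000 bp, with folds of 1.33 to 3.12 and a median of 2.22. It had 4060 reads over 2798 background reads, and H3K4me1 or H3K122ac began 1200 bp before it and 1400 bp after it. The third, chr18:2727001-2807400, held 31 islands over 80400 bp, with folds of 1.67 to 2.98 and a median of 2.05, none of them at 3 or more. The nearest mark lay 2400 bp before it and 13600 bp after it. Background in the 3 runs was 52.4, 52.4 and 57.4 reads per kb of island, close to the median of 55 of all islands. The runs were picked for their number of islands, and 2, 1 and 0 of these islands reached a fold of 3.

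By megabase, the most islands with neither mark lay in chr2:32000001-33000000, with 141 of 261 H3K27ac islands and a median fold of 2.39. There 93 of the others met H3K4me1 alone and 25 met both marks. It was followed by chr10:70000001-71000000, with 129 of 232 and a median fold of 1.92, and chr12:112000001-113000000, with 124 of 266 and a median fold of 1.94. These bins were rich in H3K27ac altogether. Among bins with at least 20 H3K27ac islands, the highest shares were in bins with few islands, where the counting error of a share is large. In chr16:7000001-8000000, 18 of 21 islands had neither mark, at a median fold of 1.60, beside 3 H3K122ac and 4 H3K4me1 islands. In chr1:242000001-243000000, 16 of 21 did, and in chr5:70000001-71000000, 38 of 50.

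Across the 1848 bins of that size the median share was 26.9% (quartiles 18.5 and 36.4%). The share depended little on how many H3K27ac islands a bin held, at 26.9% in the quintile of bins with the fewest and 29.0% in the quintile with the most. By background density it was 25.1% in the quintile of bins with the least background, 29.955% in the middle quintile and 28.4% in the quintile with the most. The median over bins of their median fold was 2.28 in the quintile of least background and 1.74 in that of most. Background reads scale with DNA copy number, which is uneven in K562, and its part in these shares was not tested.

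Chromosomes differed modestly, apart from X and 19. The share with neither mark was highest on chromosome 16, at 32.1% (30.9 to 33.2%) of 6217 H3K27ac islands, and on chromosome 15, at 31.8% (30.7 to 32.9%) of 6780. It was lowest on X, at 19.2% (18.0 to 20.4%) of 3919, and on chromosome 19, at 23.3% (22.2 to 24.4%) of 5760. On X, median background was 46.3 reads per kb in islands with neither mark and 42.0 in the others. On chromosome 19 it was 53.3 and 52.1. The median fold of islands with neither mark was below that of the others on 23 of 23 chromosomes, at 1.77 to 2.32 against 2.17 to 3.24. They were also shorter on 23 of 23. Background was lower in them on 11 chromosomes and higher on 11.

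**Figure D5:**
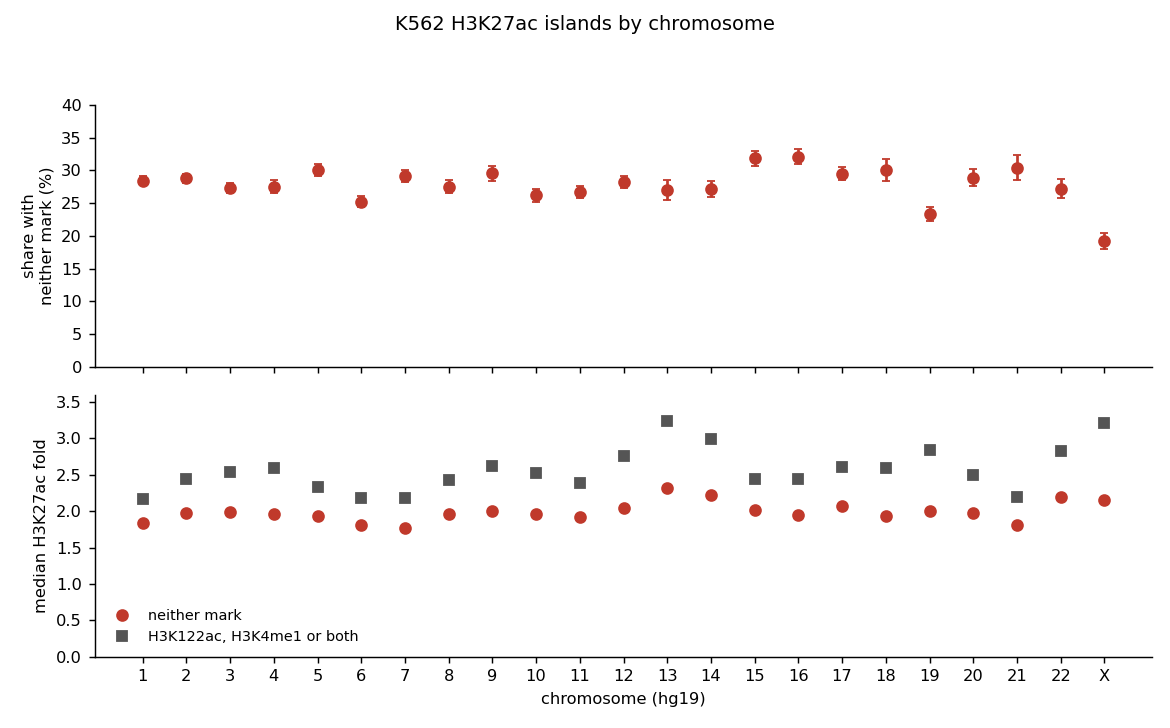
Top, share (percent, Wilson 95% intervals) of K562 H3K27ac islands with neither mark on each chromosome of hg19. Bottom, median H3K27ac fold of islands with neither mark and of islands with H3K122ac, H3K4me1 or both; the share is lowest on X, at 19.2%, and the median fold of islands with neither mark is the lower one on all 23 chromosomes.

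The islands with neither mark of highest fold were short and lay over low background. Fold divides by background, so choosing islands by fold itself favours low background. Their median fold also fell with the background count, from 3.39 at 10 to 19 reads to 1.62 at 200 to 399. How much of the short length and low background this makes was not tested. The 4467 with a fold of 3 or more had a median length of 600 bp, against 1000 bp in the 44204 weaker ones and 1600 bp in islands of the same fold range with another mark. They held a median of 55 H3K27ac reads over 23 background reads. Their background density was low, at 34 reads per kb, against 56.7 in the weaker ones and 42.4 in islands of that fold with another mark. Only 344 reached a fold of 5 and 17 a fold of 10, and no island with neither mark and at least 10 background reads exceeded 9.92. The highest fold of all, 32.0 at chr1:149782401-149782800, came from 44 reads over 2 background reads, with an exact 95% interval of 8.35 to 272.5. It was chosen after its value was seen. That interval, like those below, covers counting error only.

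Islands were then named that had at least 100 reads, at least 10 background reads, and no H3K122ac or H3K4me1 island within 5000 bp. Of 5290 such islands on numbered chromosomes other than 8 and on X, the highest fold was 8.0 (exact 95% interval 4.94 to 13.6) at chr10:89535401-89536200, from 110 reads over 20. The nearest H3K4me1 island was 10600 bp away and the nearest H3K122ac island 39400 bp. The second was chr3:87881601-87883000, at 5.55 (3.73 to 8.46) over 32 background reads, with H3K4me1 13400 bp away. These intervals overlap, and no test compared the islands. They were picked for their high folds, which the intervals do not allow for.

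The next was chr11:14502201-14503800, at a fold of 4.84 (3.37 to 7.07), which lay 400 bp from another H3K27ac island. It was followed by chr12:48065401-48066200, at 4.65 (3.16 to 7.01), with no H3K4me1 island within 16600 bp. The fifth, chr4:140301801-140303400, at 4.53 (3.06 to 6.88), was 5400 bp from H3K4me1 but 69600 bp from H3K122ac. Background in 4 of these 5 was 21.3 to 25 reads per kb, under the 5th percentile of islands with neither mark, 31.3, and 43.8 in the other, on chromosome 12.

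Ranked instead by excess read density, only the chromosome 10 island was again among the first 5, at 175.0 reads per kb. The highest was chr18:21050401-21051800, at 197.3 reads per kb, with 280 reads over 131 background reads and a fold of 3.11 (2.52 to 3.86). It was followed by chr12:118643601-118644400, at 181.4 reads per kb with a fold of 4.297 (3.03 to 6.19), which lay 68400 bp from the nearest H3K122ac island. The other ones were short: chr6:18227801-18228400, at 172.1 reads per kb with a fold of 3.15, and chr17:5256201-5256800, at 164.4 reads per kb with a fold of 2.73. Background in the islands on chromosomes 18, 6 and 17 was 93.6, 80 and 95 reads per kb, above the median of 55.

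The longest of these islands were broad and weak. The first, chr7:127355401-127375600, spanned 20200 bp with 2141 reads over 1874 and a fold of 1.66 (1.56 to 1.77). No H3K122ac island lay within 61800 bp of it, and H3K4me1 began 5800 bp away. The second, chr9:133610001-133628200, of 18200 bp, had 2993 reads over 3994 and a fold of 1.09 (1.04 to 1.14), close to the lowest fold in the list, 1.07. Its background was 219.5 reads per kb, and the densest megabase bin with 20 or more H3K27ac islands had 218.6. The third and the fifth, chr22:19337001-19353600 of 16600 bp and chr22:21168401-21182000 of 13600 bp, also had high background, at 157.9 and 158.9 reads per kb, and folds of 1.41 and 1.37.

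Only the fourth, chr3:14491601-14507400, combined length with a fold above the median of islands with neither mark. It spanned 15800 bp with 1755 reads over 1169 and a fold of 2.18 (2.03 to 2.35), at a background of 74.0 reads per kb. H3K4me1 lay 5400 bp from it and H3K122ac 9600 bp. The 411 H3K122ac islands called elsewhere with 1000 to 1999 background reads had folds of at least 1.12, with a 5th percentile of 1.99.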

How the data were processed

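Chromatin immunoprecipitation libraries of K562 were analysed, 1 per mark, grouped by title. Bowtie 0.12.8, HOMER 4.3 and SICER 1.1 are named in the submitters' processing notes, with hg19 as the human build (roles not given in the sources used here). Per the labels of the lists, islands were called in 200 bp windows at a false discovery rate of 0.01, allowing gaps of 200 bp in H3K27ac and 600 bp in H3K122ac and H3K4me1. The deposited lists hold raw read counts per island for the immunoprecipitated library and a background library, with the caller's p-value and q-value. The library used as background is not named in the labels. The authors' deposited fold equals the ratio of these counts over 1 library ratio per list, and a background of 0 was taken as 0.25. Inside islands, H3K27ac had 34195325 reads, H3K122ac 18283729 and H3K4me1 35562145. Only the 3 K562 lists were used.

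Overlaps, distances and medians were computed with Python 3.11.15, pandas 2.3.3 and scipy 1.17.1, and the overlap code was tested on simulated islands. Shares carry Wilson 95% intervals, single folds exact binomial ones. The Wilson intervals treat islands as independent, which neighbouring islands are not, so they can be too narrow. Bins of 1000000 bp needed 20000 bp of islands of the 3 lists. Named regions, limited to X and numbered chromosomes other than 8 by a choice made with the rule, were the 5 of highest fold, length and excess read density, the 3 runs with most islands, 3 bins each by number and share, the 3 islands on either side of the rule, and the chromosomes of highest and lowest share. The islands, lists and rules were chosen with earlier results of these data known. Gene position and sequence were not analysed here.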

Additional observations from a re-analysis of the deposited data

How the results depend on the processing

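No paired analysis was possible because each K562 mark has 1 library and no test was made. The count of islands with neither mark and its share were recomputed under alternatives. So were the log2 differences in median fold, length and background (neither minus another mark), which made 68 values in all. Counts and shares cannot change sign. Background, reported as 0, took either sign. The fold and length differences stayed below 0 in every alternative. Values are given in the order count, share, fold, length, background. The count is given wherever it was recomputed, and other values that did not move are mostly left out.

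With under 50% of the island covered by each mark, the count was 53260, the share 30.6% and the fold difference -0.36. With no mark within 1000 bp they were 39017, 22.4% and -0.31, and within 5000 bp 18656, 10.7% and -0.25. At a q-value of at most 1e-10 in all 3 lists the values were 19702, 20.03%, -0.39, -0.36 and -0.037, and for H3K27ac only 15422, 15.7%, -0.32, -0.36 and -0.11. At an H3K27ac fold of 3 or more they were 4467, 9.19%, -0.27, -1.42 and -0.32. When the other marks needed a fold of 3 or more, the count was 84659, the share 48.7% and the differences -0.59, -0.22 and 0.18. For the 20000 islands of highest fold per list they were 2827, 14.1%, -0.18, -1.32 and -0.21. With H3K27ac islands joined across 600 bp the count was 34664, the share 28.5%, the length difference -0.58 and the background difference 0.019. Restricting to numbered chromosomes gave a count of 47920 and a share of 28.2%, and at least 10 background reads a share of 28.0%. Under either restriction the fold difference was -0.34, and the length and background differences were as reported. Within the 4 length ranges the fold difference was -0.20, -0.20, -0.28 and -0.57, from short to long. Within deciles of fold the share was 40.04, 41.6, 40.9, 37.7, 34.8, 30.7, 24.4, 16.8, 9.58 and 2.70%, from low to high.

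The alternatives on gene starts were not run, since no annotation of hg19 was used. The reach of the H3K122ac list limits what its absence can show. By construction, counts were lower where the excluded distance was wider or fewer H3K27ac islands entered, and higher where fewer islands of the other marks counted. The cause of the other moves was not tested.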
